A study of Rattus norvegicus with 9 samples.

Results

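Lmcd1, Nexn, Pdlim3, Ppp1r14a, Itga8, Sgca and Cpe were followed in thoracic aortas of rats exposed to maternal diabetes before birth (DMO, offspring of diabetic mothers), each set against 1 offspring of a control mother (CMO). These 7 genes were chosen by their log ratios on the same arrays, so their values describe the arrays and no test is given for them. They were read from 8 of 22575 features, those probes whose only gene symbol was one of the 7, and 6 genes had 1 probe and Sgca had 2. The array carries 9653 genes with a symbol of their own.

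Each two-colour Agilent array held aortic RNA of 1 DMO and 1 CMO rat, labelled with Cy3 and Cy5. There were 5 pairs of animals: DMO 193 against CMO 189, 194 against 190, 197 against 191, 199 against 192 and 220 against 216, and each pair is called here by its DMO number. All pairs but 194 were hybridised in both dye orientations, which gave 9 arrays, 5 with the DMO sample on Cy3 and 4 with it on Cy5. The sources used here do not give how the mothers' diabetes arose, or the strain, age, sex and litter of the offspring. If pairs shared a litter, p-values would be too small.

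The deposited value is 1 log ratio per feature and array, here taken as log2, and the sources used here state neither the base nor which group a positive value favours. Signs are therefore given as deposited, and positive and negative are not translated into higher or lower in DMO aortas. Both dye orientations were read as running in 1 direction, without further sign change. Across all features the 2 arrays of a pair correlated at r = 0.150 (pair 193), 0.674 (pair 197), -0.176 (pair 199) and 0.072 (pair 220), and features are not independent. Arrays of different pairs in 1 dye orientation correlated at r from -0.063 to 0.373. Gene names rest on a renumbering of the features that was settled after the values had been seen: with it, probes of the same gene correlated at r from 0.124 to 0.263 across 4329 probe pairs in the 5 animal pairs, against -0.0082 to 0.026 with the row numbers as deposited. Only ratios were used here, so the levels of the genes, and of markers that would identify the tissue, cannot be read.

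In the wall of the aorta, smooth muscle cells contract when myosin pulls on actin filaments that are anchored at dense bodies and at the cell membrane. Scaffold proteins with LIM or PDZ domains hold the actin cross-linker alpha-actinin and its partners in place, integrins and the dystrophin complex tie the cell to the matrix, and the balance of myosin kinase and myosin phosphatase sets the force. Of the 7 genes, 6 belong to this machinery or its regulation. Cpe does not: it encodes carboxypeptidase E, which trims peptide hormone precursors in secretory granules. The name muscle scaffold thus covers Nexn and Pdlim3 most closely, and Sgca as part of a membrane complex.

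All 7 genes had their lowest value in pair 193 or pair 197. In these pairs 7 of 7 were negative, with medians of -1.58 (pair 193) and -2.56 (pair 197), and Sgca was the highest of them at -0.25 and -0.46. In the other pairs 2 of 7 were negative in pair 194 (median 0.34), 4 of 7 in pair 199 (median -0.036) and 3 of 7 in pair 220 (median 0.0034). The medians over all 19478 features tested, that is gene symbols and unnamed probes, lay between -0.041 and 0.076 in the 5 pairs. A value under -1 in both pair 193 and pair 197 was held by 5 of the 7 genes and by 37 of all features (0.19%), and a negative value in both pairs by 20.3% of all features, a contrast on which the genes were chosen. Because the arrays measured whole tissue, a difference in the number of smooth muscle cells and a difference in RNA per cell cannot be told apart in any of these values. By the labels, pairs 193 and 197 also had the lowest DMO extract concentrations and the lowest DMO and CMO extract amounts of the 5 pairs. The CMO extract concentration was lowest in pair 193 but highest in pair 197. Whether extract amount or concentration bears on the values of the 7 genes was not tested.

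**Figure D1:**
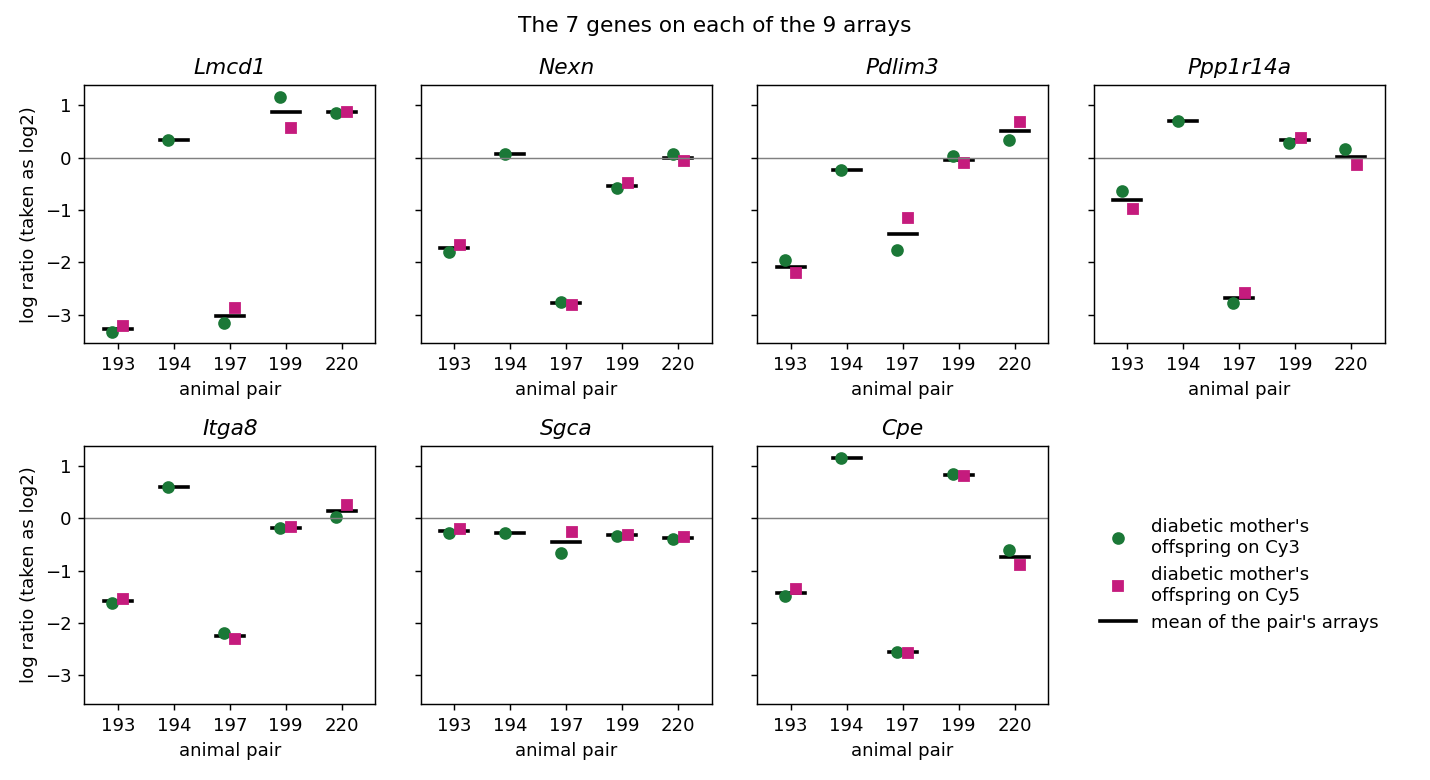
Log ratio (taken as log2, sign as deposited) of each of the 7 genes on the 9 arrays, by animal pair on the horizontal axis. Circles mark DMO on Cy3, squares DMO on Cy5, and bars the mean of a pair's arrays. Lmcd1 lies near -3 in pairs 193 and 197, Sgca stays between -0.66 and -0.21 on every array, and the 2 dye orientations mostly lie close together.

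Lmcd1 encodes a LIM domain protein that, in mouse, binds GATA6 and holds back its transcriptional activity. Pair 193 had values of -3.33 and -3.22 and pair 197 of -3.17 and -2.88, giving DMO on Cy3 first here and throughout. On the single array of pair 194 Lmcd1 was at 0.34. Pair 199 gave 1.16 and 0.57, and pair 220 gave 0.86 and 0.87. Pairs 193 and 197 thus stood far below 0 on all 4 of their arrays and the other pairs above 0 on all 5 of theirs. Lmcd1 had the lowest value of all 19478 features in pair 193 and the 2nd lowest in pair 197, and in pair 220 it was higher than 99.7% of them. Its mean of -0.85 ± 2.12 (SD, n = 5 pairs) therefore stands for no single pair, and became -0.24 without pair 193, -0.30 without pair 197 and -1.27 without pair 199 or pair 220.

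Nexn encodes nexilin, an actin filament-binding protein of focal contacts and, in striated muscle, of the Z-disc. Pair 193 gave -1.81 and -1.66, pair 197 gave -2.75 and -2.81, and pair 199 gave -0.58 and -0.49. Pair 220 gave 0.066 and -0.071, and pair 194 gave 0.075. Nexn was thus negative in 3 pairs by more than its arrays differed and near 0 in the other two. It ranked 9 from the lowest of all features in pair 193 and 10 in pair 197. Its mean of -0.996 ± 1.23 was the largest in size of the 7, and was -0.55 without pair 197.

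Pdlim3 encodes ALP, a PDZ and LIM domain protein that binds alpha-actinin at the Z-disc. Pair 193 gave -1.96 and -2.21, and pair 197 gave -1.76 and -1.16. Pair 194 gave -0.23, pair 199 gave 0.031 and -0.10, and pair 220 gave 0.34 and 0.68. Pdlim3 and Lmcd1 were the genes with a lower value in pair 193 than in pair 197, while the other 5 were lowest in pair 197. Pdlim3 ranked 3 from the lowest in pair 193 but 236 in pair 197, where many more features were low. Over the pairs it averaged -0.66 ± 1.07, and -0.30 without pair 193.

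Ppp1r14a encodes CPI-17, which inhibits myosin phosphatase once protein kinase C has phosphorylated it. Pair 193 gave -0.65 and -0.99, and pair 197 gave -2.77 and -2.58. Pair 194 gave 0.70, pair 199 gave 0.28 and 0.38, and pair 220 gave 0.16 and -0.15. The negative mean of -0.49 ± 1.34 rested on pair 197: without that pair the mean was 0.054, and without pair 194 it was -0.79. Ppp1r14a ranked 12 from the lowest in pair 197 and 130 in pair 193.

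Itga8 encodes the integrin alpha8 subunit, which pairs with beta1 and binds nephronectin and fibronectin. Pair 193 gave -1.62 and -1.54, and pair 197 gave -2.19 and -2.30. Pair 194 gave 0.59, pair 199 gave -0.19 and -0.17, and pair 220 gave 0.020 and 0.26. Its arrays in pairs 193 and 197 lay below those of the other pairs, as for the other genes with 1 probe. The genes were chosen on this contrast, and the share of all features with such a split was not counted. The mean was -0.65 ± 1.20, -0.42 without pair 193 and -0.26 without pair 197. Itga8 and Nexn were the most alike of the 7 genes, with a root mean square difference of 0.37 over the 9 arrays, whereas Lmcd1 and Sgca were the least alike at 2.05.

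Sgca encodes alpha-sarcoglycan, a transmembrane member of the dystrophin complex best known from striated muscle. Averaged over its 2 probes it was negative on all 9 arrays, from -0.66 to -0.21, and over the pairs at -0.34 ± 0.083. It was the 1 gene of the 7 with a single sign in every pair, and 549 of all features (2.82%) were negative in all 5 pairs. The probes differed. That for the RefSeq transcript was at -0.39, -0.31, -0.96, -0.49 and -0.72 in pairs 193, 194, 197, 199 and 220, while that for an expressed sequence tag was at -0.10, -0.26, 0.042, -0.16 and -0.030 in the same pairs. The small SD of the gene thus holds for the mean of unlike probes. Between the 2 dye orientations the gene's SD was 0.15, above its SD over the pairs. Sgca also lacked the depth of the others in pair 193, where it was at -0.25, its highest pair value, and 6.95% of features were lower. The same held in pair 197, where it was at -0.46 and 11.5% of features were lower.

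For Cpe, pair 193 gave -1.49 and -1.36, and pair 197 gave -2.55 and -2.57. Pair 194 gave 1.15, and pair 199 gave 0.85 and 0.81. Pair 220 gave -0.61 and -0.88, so that of the 6 genes with 1 probe it was the 1 clearly negative there. Cpe was higher than 99.05% of all features in pair 194 and 98.0% in pair 199, but than 0.924% of them in pair 220. Its mean was -0.55 ± 1.55, which became -0.33 without pair 193, -0.97 without pair 194, -0.047 without pair 197 and -0.89 without pair 199.

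**Figure D2:**
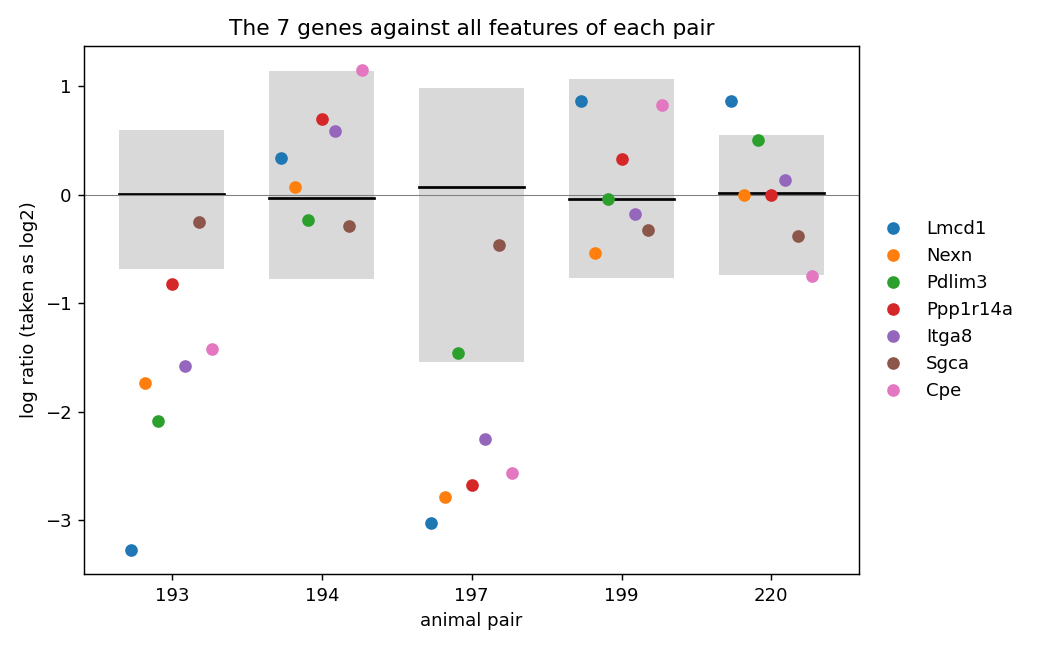
Log ratio (taken as log2) by animal pair. Grey bars run from the 1st to the 99th percentile of 19478 features, the black line is their median, and points are pair means of the 7 genes. In pair 193 all but Sgca lie under the bar, and in pair 197 all but Sgca and Pdlim3.

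The 2 arrays of a swapped pair had the same sign in 25 of 28 combinations of gene and pair, and in 14 of 14 in pairs 193 and 197. The 3 exceptions, Nexn and Ppp1r14a in pair 220 and Pdlim3 in pair 199, all lay near 0. The SD between dye orientations ranged from 0.081 for Nexn to 0.27 for Pdlim3. The SD over pairs exceeded it for 6 of 7 genes, at up to 15.3 times for Nexn, and was 0.57 of it for Sgca. The genes were chosen on these values, so the counts of equal sign and the ratio are descriptions. Both hold for the signs as deposited. The share of all features with equal signs was not counted. The repeat covers labelling and array, not a second sample of the animal.

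Whether the Cy5 arrays had been turned before deposit is not stated. With their sign turned, the largest pair mean of the 7 genes in a swapped pair was 0.30 in size (Pdlim3, pair 197), and the single array of pair 194 kept its values of up to 1.15 for Cpe. The means then became 0.085 for Lmcd1, 0.011 for Nexn, -0.10 for Pdlim3, 0.18 for Ppp1r14a, 0.096 for Itga8, -0.11 for Sgca and 0.25 for Cpe. All statements on pairs 193 and 197 hold for the values as deposited.

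In the comparison of DMO with CMO aortas over all features, which asks whether maternal diabetes left a mark on aortic gene expression, limma passed 0 of 19478 features at an adjusted p of 0.05 (0%). Before adjustment, 494 features with a negative mean (2.54%) and 435 with a positive one (2.23%) had a p under 0.05. Without moderation of the variances 1 feature passed. The replicate is the animal pair, and pair 194 entered with 1 array where the others were means of 2.

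The other LIM and PDZ domain and Z-disc scaffold genes had medians of -0.092 in pair 193 and -0.22 in pair 197, and 2 of them lay under -1 in pair 193 and 7 in pair 197, against 0.375% and 3.3% of all features in these pairs. Of 28 measured, 18 had a negative and 10 a positive mean, where 48.7% of all features had a negative one, with a median of -0.077 against 0.0037 over all features, and 0 passed in either direction, as in all lists described here (adjusted p from 0.926 to 0.997 in limma). At an unadjusted p under 0.05 there was 1 on each side, Pdlim5 (-0.37 ± 0.42) and Actn2, the striated muscle alpha-actinin (0.21 ± 0.074). Some members followed the same pairs closely. Fhl1, a LIM-only protein of muscle, had -1.48 in pair 193, -2.14 in pair 197 and values from -0.23 to 0.29 elsewhere. Csrp1, a LIM protein of smooth muscle, had -1.13 and -1.91 in these pairs, against 0.87 (pair 194), 0.49 (pair 199) and -0.17 (pair 220). Lims2, an adaptor of integrin-linked kinase, was at -2.52 in pair 197, -0.59 in pair 193 and 0.80 in pair 194. Of the 28 genes, 16 were negative in both pairs 193 and 197, and 14 of these were positive in pair 194, conditions that 20.3% and 12.4% of all features met. The list's median turned to 0.019 without pair 197 and to 0.12 when Cy5 arrays were turned in sign, and was -0.14 without pair 194. Crip2 was positive in each pair (0.19 ± 0.13). Pdlim2, a relative of Pdlim3, was at 0.021 ± 0.25.

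The dystrophin complex list also held genes outside the complex itself, such as caveolins and dysferlin. Without Sgca, 2 of its 11 genes had a negative mean (48.7% of all features) and 9 a positive one. Their median was 0.068 (0.18 without pair 220). Of the 11, 0 passed, and none had an unadjusted p under 0.05 in limma. The sarcoglycan partners of Sgca, picked by role after their values were seen, were Sgcb at 0.18 ± 0.50, Sgcd at -0.17 ± 0.28 and Sgce, which is widely expressed, at 0.11 ± 0.44. Dystrobrevin beta (Dtnb) was at -0.096 ± 0.16, caveolin 3 (Cav3) at 0.15 ± 0.24, utrophin (Utrn) at 0.062 ± 0.11 and the membrane repair protein dysferlin (Dysf) at 0.058 ± 0.040. In pairs 193 and 197, the list had medians of 0.021 and 0.045, against -1.58 and -2.56 for the 7 genes. Of the 11, 1 was negative in both of these pairs, against 20.3% of all features. None was under -1 in either, against 0.375% of all features in pair 193 and 3.3% in pair 197.

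Genes around CPI-17 also split. Of 17 measured genes of myosin phosphatase and its regulators, 9 had negative and 8 positive means (median -0.041, but 0.013 without pair 193 and 0.020 without pair 197), and 0 passed. In pair 197, 4 of the 17 lay under -1, against 3.3% of all features, and in pair 193 none did, against 0.375%. Ppp1r12c, a targeting subunit of the phosphatase, was the 1 with an unadjusted p under 0.05, at -0.40 ± 0.50. Protein kinase C delta (Prkcd) was at -1.62 in pair 197, -0.95 in pair 199 and 0.81 in pair 194, with a mean of -0.56 ± 0.90. Integrin-linked kinase (Ilk) was at -1.72 in pair 197, -0.65 in pair 193 and 0.63 in pair 194. The small GTPase Rhoa was positive in pairs 197 (0.63) and 193 (0.17) and averaged 0.31 ± 0.42. Ppp1r14b, a relative of CPI-17, was at 0.47 in pair 197, where Ppp1r14a was at -2.68, and at 0.17 ± 0.27 over the pairs. Arhgef11, an exchange factor for RhoA, averaged 0.17 ± 0.21.

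Integrins and their ligands had 9 negative and 8 positive means among 17 genes, a median of -0.0029 that turned sign in 8 of 11 other settings, and 0 passing. In pair 197, 4 of the 17 lay under -1, against 3.3% of all features, and in pair 193 none did, against 0.375%. These 4, listed for that value, were Spp1 (-2.18), Itgb1bp2, Fn1 (-1.29) and Itga7 (-1.22). Itgb1, the beta1 subunit that partners alpha8, was negative in all 5 pairs but small, at -0.16 ± 0.11, and at -0.25 in pair 197, where Itga8 was at -2.25. Itgb1bp2, the muscle protein melusin that binds beta1, had -1.78 in pair 197 and values from -0.31 to 0.14 elsewhere. Vitronectin (Vtn, 0.23 ± 0.16) was the 1 member with an unadjusted p under 0.05. Itgb4 reached 1.41 in pair 194, with -0.25 to 0.12 elsewhere.

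Calcineurin, NFAT, GATA and SRF pathway genes, which include the partner of Lmcd1, had medians from -0.14 in pair 194 to 0.24 in pair 197. The median of the 12 means was 7.9e-05, 6 means were negative and 6 positive, and 0 passed, none at an unadjusted p under 0.05 either. Gata6, picked after its value was seen, was at 0.0051 ± 0.13, with -0.093 in pair 193 and 0.21 in pair 197, where Lmcd1 was at -3.27 and -3.02. Mef2a was negative in each pair at -0.13 ± 0.10, and Klf4, which opposes the contractile programme in smooth muscle, was at 0.18 ± 0.48. Prohormone processing genes, the setting of Cpe, had 10 negative and 8 positive means among 18 (median -0.037, but 0.0046 without pair 194) and 0 passed. The proprotein convertases Furin (-0.37 ± 0.45), the 1 with an unadjusted p under 0.05, and Pcsk5 (-0.24 ± 0.28) led them, and Vgf was at 0.044 ± 0.24.

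**Figure D3:**
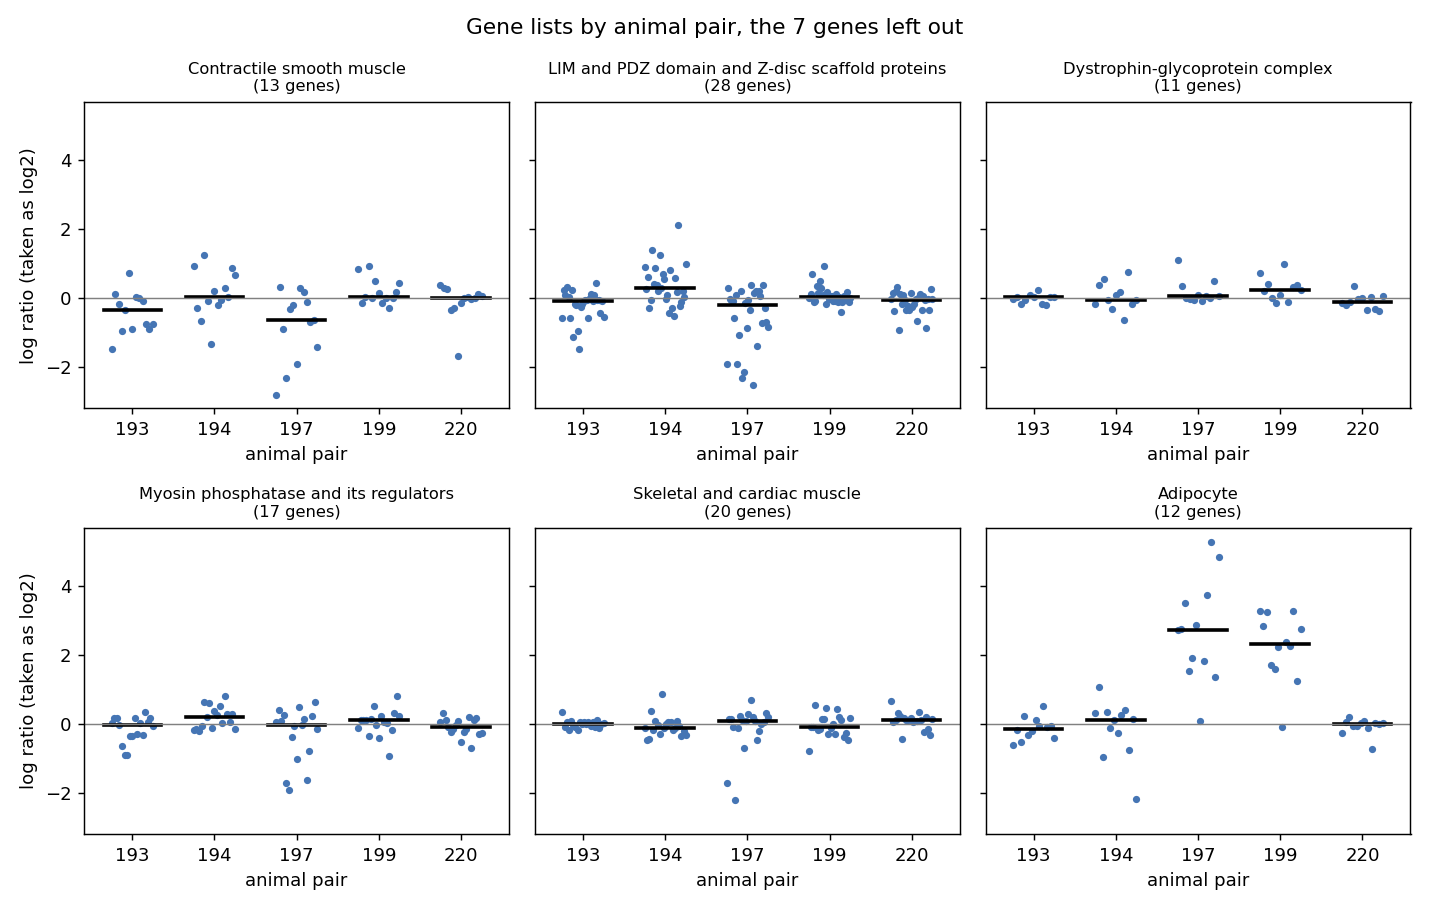
Log ratio (taken as log2) of single genes (points) and the list median (black line) by animal pair for 6 gene lists, with the 7 genes left out. Points under -1 number 4 in the contractile list and 7 in the scaffold list in pair 197 (3.3% of all features). In pair 193 they number 1 and 2 (0.375% of all features). The median of the dystrophin complex list stays between -0.13 and 0.23 while single genes reach 1.11. The median of the adipocyte markers is above 2 in pairs 197 and 199.

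Contractile smooth muscle genes other than Itga8 and Ppp1r14a had medians of -0.35 in pair 193 and -0.64 in pair 197, against 0.020, 0.012 and -0.0026 in pairs 194, 199 and 220. Of 13 measured, 11 had a negative and 2 a positive mean (median -0.22), where 48.7% of all features had a negative one, and 0 passed. The median was -0.031 without pair 197, -0.12 without pair 193, -0.36 without pair 199 and 0.042 when Cy5 arrays were turned in sign. Kcnmb1, the beta subunit of the large-conductance potassium channel, was negative in all 5 pairs (-0.22 ± 0.16) and the 1 with an unadjusted p under 0.05. Of all features, 2.54% had such a p with a negative mean. Tagln, an actin-binding protein, was at -0.75 in pair 193 and -0.71 in pair 197, and Synm, an intermediate filament protein, averaged -0.047 ± 0.21. Of the 13, 9 were negative in both pairs 193 and 197, against 20.3% of all features. Others, picked after their values were seen, differed. Cald1 (0.10 and 0.31) and Myocd (0.034 and 0.28) were positive in both. Lmod1, with a mean of -0.40 ± 1.08, was positive in pairs 193 and 199 (0.73 and 0.50). Its lowest values were those of pairs 220 and 194 (-1.68 and -1.34), and pair 197 gave -0.19. Acta2, Myh11 and Mylk were not analysed here.

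Of the markers of other cells, those of adipocytes lay apart between pairs 193 and 197. Adipocyte markers had a median of -0.15 in pair 193, from -0.61 to 0.50 over 12 genes, and of 2.73 in pair 197, from 0.081 to 5.28. In pair 199 their median was 2.31, while the 7 genes had a median of -0.036. The leading adipocyte genes Pck1, Cfd and Lpl were at 5.28, 2.74 and 3.74 in pair 197 but at -0.11, -0.20 and 0.50 in pair 193. Endothelial markers had medians of 0.19 in pair 193 and 0.40 in pair 197, with Kdr at 0.69 and 0.90 and Emcn at 0.77 and 0.98. Ephx1, listed with earlier results known, was at 0.60 and 0.40. Skeletal and cardiac muscle markers had medians of -0.00091 in pair 193 and 0.087 in pair 197. Under -1 in pair 197 were 2 of 20 genes (3.3% of all features), Ckm at -2.21 and Actc1 at -1.73. In pair 193, 0 of 20 were under -1 (0.375% of all features). Casq2 was at -0.19 in pair 193 and -0.088 in pair 197. Adventitial fibroblast markers had medians of -0.14 and 0.22, leukocyte markers of 0.091 and 0.045, and Schwann cell and neuron markers of -0.011 and 0.17 in these pairs. The part of these markers in the values of the 7 genes was not tested.

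Of all other named genes, those nearest to the median profile of the 7 over the 9 arrays were Fhl1, Ccn3, Myl9, Tgfb3, Csrp1, Actg2, Myh10, Ptgis, Slc4a3 and Lrrfip1, with root mean square differences of 0.25 for Fhl1 to 0.57 for Lrrfip1. The profile itself had a root mean square of 1.42. Ccn3 is a secreted matricellular protein, Myl9 the regulatory light chain of smooth muscle myosin, Actg2 smooth muscle gamma-actin, Myh10 a non-muscle myosin heavy chain and Ptgis prostacyclin synthase. Ccn3 had -1.36 in pair 193, -2.33 in pair 197 and values from -0.063 to 0.43 elsewhere. Actg2 had -1.49 (pair 193) and -2.80 (pair 197), against 0.93 (pair 194), 0.84 (pair 199) and 0.37 (pair 220). Ptgis was nearly as low in pair 197 (-2.57) but less so in pair 193 (-0.66). The profile was set by genes chosen on these values, so the likeness is a description.

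**Figure D4:**
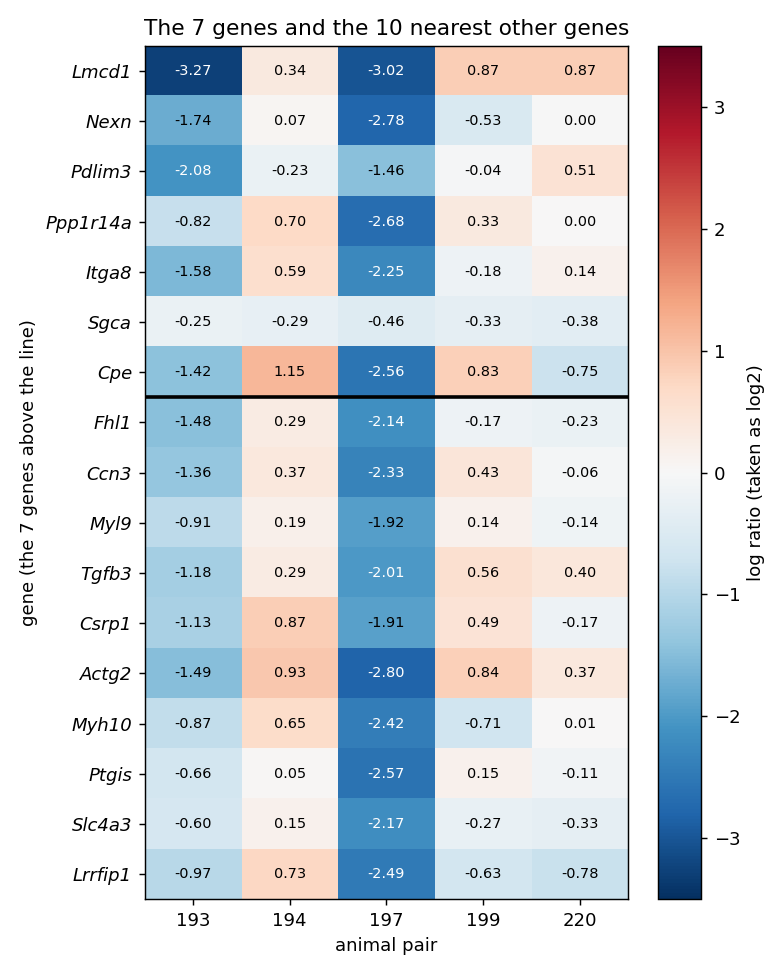
Pair means of the log ratio (taken as log2) for the 7 genes, above the line, and the 10 other genes nearest to their median profile, below it, with animal pairs as columns and blue for negative values. Pairs 193 and 197 are negative in every row, while pair 194 is positive in all rows but Pdlim3 and Sgca.

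Ccn3 was among the 3 nearest genes of 5 of the 7, and Fhl1 among those of 3. Nearest to Lmcd1 were Actg2 (0.92), Ccn3 (1.09) and Ccn2 (1.11), distances as root mean square differences, none of them close to its depth in pair 193. Nexn was nearest to Fhl1 (0.40), Myh10 (0.53) and Ccn3 (0.55), and Itga8 to Fhl1 (0.23), Ccn3 (0.33) and Myl9 (0.44). Pdlim3 was nearest to the sarcolemma-associated Slmap (0.59), Fhl1 (0.61) and Tgfb3 (0.64). Ppp1r14a was nearest to Ccn3 (0.38), Wfdc1 (0.39) and the lipid phosphatase Plpp1 (0.39). Cpe lay nearest to desmin (Des, 0.34), the intermediate filament protein of muscle, then Csrp1 (0.48) and Ccn3 (0.49). Des was at -0.97, 1.25, -2.32, 0.94 and -0.35 in pairs 193, 194, 197, 199 and 220, and Cpe at -1.42, 1.15, -2.56, 0.83 and -0.75. The neighbours of Sgca were Pds5b (0.13), Fibin (0.15) and Tigar (0.18), genes with small negative values throughout.

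RefSeq promoters in the GRCr8 build matched 6 of the 7 genes. The 250 bases before the start were searched on both strands for the CArG box bound by SRF, the MCAT element CATTCC bound by TEAD factors in muscle genes, the E-box CANNTG, the TATA box TATAAA, the cyclic AMP response element TGACGTCA and its part TGACG, which overlaps it. No CArG box or TATA box was in the 6 windows, against 1.497% (CArG box) and 12.9% (TATA box) of 33469 promoters. The MCAT element was in 2 of 6 (12.1% of all promoters), the E-box in 5 of 6 (65.5%), TGACGTCA in 1 of 6 (1.59%) and TGACG in 3 of 6 (18.2%). A missing motif says only that these letters are not in this window. The promoters of Lmcd1 (chr4:146948743-146948992, plus strand), Nexn (chr2:243878153-243878402, minus strand) and Cpe (chr16:29796457-29796706, plus strand) are shown because they hold the rarer motifs, in capitals, and belong to genes among the 26 lowest features of pair 193. In capitals are TGACGTCA in Lmcd1, 192 to 185 bases before the start, the MCAT element in Nexn on the opposite strand, 101 to 96 bases before it, and in Cpe, 210 to 205 bases before it.
Lmcd1: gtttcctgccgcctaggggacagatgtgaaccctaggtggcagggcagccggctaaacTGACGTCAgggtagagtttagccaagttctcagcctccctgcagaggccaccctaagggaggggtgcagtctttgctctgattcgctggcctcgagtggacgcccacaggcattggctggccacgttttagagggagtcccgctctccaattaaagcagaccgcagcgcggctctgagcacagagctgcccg
Nexn: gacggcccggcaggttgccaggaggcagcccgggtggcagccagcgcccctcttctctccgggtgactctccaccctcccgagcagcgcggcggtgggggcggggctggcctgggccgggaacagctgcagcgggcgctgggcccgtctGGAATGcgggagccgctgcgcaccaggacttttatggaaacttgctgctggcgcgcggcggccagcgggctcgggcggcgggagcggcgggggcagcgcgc
Cpe: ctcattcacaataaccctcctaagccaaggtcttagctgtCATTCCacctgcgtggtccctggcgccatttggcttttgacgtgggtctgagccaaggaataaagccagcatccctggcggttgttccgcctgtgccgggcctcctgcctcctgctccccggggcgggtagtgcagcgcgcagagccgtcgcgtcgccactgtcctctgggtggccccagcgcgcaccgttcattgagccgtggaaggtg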

How the data were processed

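Per the labels, total RNA of rat thoracic aorta was extracted with Trizol and labelled by an Agilent cRNA protocol. The authors deposited 1 log ratio per feature and array, taken here as log2. Array means were 0 in the deposited values and array medians -0.057 to 0.088, so arrays look mean-centred. The sources used here do not give scanner software, background correction, normalization, log base or direction, and the labels carry 1 common date. The series' design text counts 10 samples, and 9 arrays were analysed here. Without signals, dim features and control spots could not be removed. Precision is limited by how few arrays there are.

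Arrays of a pair were averaged, probes with the same single symbol were averaged, and 9820 features without a symbol and 5 with several were kept as single features. The intercept over the 5 pairs was tested with limma 3.58.1 in R 4.3.3 across all 19478 features, two-sided, with Benjamini-Hochberg adjustment at 0.05. The method was first run on simulated pairs. These lacked the dye effects and correlated features of the arrays, so that run lends no support to the results. The 7 genes and the gene lists were chosen with earlier results of these data known. Members of a list were named if among the 3 largest means per side with 1 sign in at least 4 of 5 pairs, or the 3 largest in size for cell markers. For neighbours, the 3 nearest to each gene and the 10 nearest to the median profile by root mean square difference were named. Genes named outside these rules are marked as such, and repeat namings follow from either rule. The 2 dye orientations share animals by the labels, so the pair was the replicate, and a fit with it as a replicate block was an alternative. Python 3.11.15 did the rest.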

Additional observations from a re-analysis of the deposited data

Results flagged for a closer look

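Of 83 results checked, 7 had 1 animal pair set far apart from the other pairs by Dixon's criterion, which chance alone meets in about 1 in 20 groups. None was among the 7 genes. Pair 197 stood apart for Ckm at -2.21, with the next value at -0.18, and for Itgb1bp2 at -1.78, with the next at -0.31. Pair 194, measured on a single array, stood apart for Scn7a at 5.29 (next 0.25), Pmp22 at 3.77 (next 0.27) and Itgb4 at 1.41 (next 0.12). In pair 193 the leukocyte gene Lyz2 was at 1.18, with the next value at -0.83. In pair 199 Pdlim2 was at -0.41, with the next value at 0.058.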

How the results depend on the processing

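When arrays with DMO on Cy5 were multiplied by -1, the median of the 7 gene means was 0.085, and the means of Lmcd1 (0.085), Nexn (0.011), Ppp1r14a (0.18), Itga8 (0.096) and Cpe (0.25) changed sign. Features at an unadjusted p under 0.05 then numbered 3131, and 2174 with the 5 arrays carrying DMO on Cy3 alone. Leaving out 1 pair at a time gave 612 (without pair 199) to 1249 (without pair 194), and 1 to 2 of the 7 genes with 1 sign in every pair. The mean of Ppp1r14a ranged from -0.79 to 0.054, and the median of the 7 from -0.97 without pair 194 to -0.30 without pair 197 (-0.36 without pair 193). Without moderation 1 feature passed limma. With the animal pair as a replicate block over all 9 arrays, 0 features passed, 1393 had an unadjusted p under 0.05 and the median of the 7 was -0.72. The causes were not tested. Of 143 list medians under other settings, 26 turned sign, 8 of them for integrins and 5 for fibroblast markers. The adipocyte median of 0.998 became 0.029 with the Cy5 sign turned. A filter on dim probes could not be run without signals.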
